A study of Homo sapiens with 21 samples.

Results

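The transcription factors of the integrated stress response (ISR) were followed in hTERT-HPNE cells after oxidative stress or DNA double-strand breaks. The group holds 8 genes, ATF3, ATF4, ATF5, DDIT3, CEBPB, CEBPG, CEBPD and NUPR1, chosen by symbol among the 23368 genes of the expression table, and all 8 were found. All 8 varied between libraries and were tested, among 19694 genes. The choice was made with earlier results of these data known, so counts of these genes are a description. hTERT-HPNE is a line of human pancreatic duct origin, immortalized with telomerase and not transformed. Its 7 groups were untreated cells, harvested at 0 h, and cells harvested 4, 8 or 24 h after 300 µM hydrogen peroxide (H2O2), an oxidant, or 400 ng/ml neocarzinostatin (NCS), a drug that breaks both strands of DNA. All groups grew in the same medium with EGF and puromycin, and each had 3 biological replicates, 21 libraries of polyadenylated RNA in all. Medium was renewed when the agents were added. The untreated cells had no harvest at 4, 8 or 24 h, so time in fresh medium and treatment cannot be told apart in a comparison with them. H2O2 and NCS were compared at equal times, but at doses of different kinds.

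In the ISR, kinases that sense different stresses phosphorylate the translation initiation factor eIF2. Bulk protein synthesis then falls, while a few mRNAs with upstream open reading frames, ATF4 and ATF5 among them, are translated better. ATF4 protein pairs with C/EBP proteins and activates genes of amino acid supply, tRNA charging and redox balance, together with further transcription factors such as ATF3 and DDIT3 (also called CHOP). Since ATF4 and ATF5 are controlled largely at translation, their mRNA is not a measure of their protein, and protein was not measured in these libraries.

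Levels are rLog values, read counts that were normalized for library size and put on a log2 scale with differences shrunk, most of all for genes with few reads. They are not scaled by gene length, so levels are compared between groups and not between genes. A difference is a difference of group means on this log2 scale, and its SE and adjusted p come from limma, fitted once to all 7 groups. The SE of a gene thus pools the spread of all groups and can be too small for a group of wider spread. A gene is said to have changed, risen or fallen at an adjusted p under 0.05. It is called differentially expressed if the difference was also larger than 1 in either direction. The study applied this limit to fold changes from counts, and with shrunk differences it can be stricter here. Counts were not among the values analysed, and library depth is therefore unknown. RNA came from whole cultures, so a change in every cell and a change in the share of responding cells cannot be told apart.

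The cells had high NES (11.8 to 12.3 over the 21 libraries), VIM (16.8 to 17.2) and KRT18 (11.4 to 11.9), while the duct keratin KRT19 lay between 0.58 and 0.73 and was nearly absent. TERT, the gene used to immortalize the line, lay between 13.9 and 14.4. The acinar gene PRSS1 and the islet gene INS were listed at 0, the leukocyte gene PTPRC reached 0.98 and the endothelial gene PECAM1 2.42. CPA1, GCG and EPCAM had values below 0, and CDH1 lay between 3.70 and 3.88. Library medians lay between 7.14 and 7.19. Replicate 2 of H2O2 after 8 h stood apart from its group. Its distance to the mean of the other 2 libraries was 13.8 (root of the summed squared differences over all tested genes), against 7.84 to 11.2 for the other 20 libraries. Results after 8 h of H2O2 that depend on it are given with and without it.

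Bases upstream of the gene start are shown for the 3 members in which a motif of ISR or stress factors was found, since ATF3 and DDIT3 were differentially expressed at all 3 times of H2O2 and ATF5 did not rise in H2O2. The sequences are from RefSeq (GRCh38.p14), which had an entry for 6 of the 8 genes (none for CEBPD and NUPR1), and end at the base before the start. Capitals mark the motif, on the strand of the gene. In ATF3 it is the C/EBP-ATF composite element TGATGNAA, the kind of site that ATF4 binds with a C/EBP partner. In DDIT3 and ATF5 it is the AP-1 element TGANTCA, bound by Jun and Fos proteins.
ATF3, chr1:212565157-212565406, plus strand: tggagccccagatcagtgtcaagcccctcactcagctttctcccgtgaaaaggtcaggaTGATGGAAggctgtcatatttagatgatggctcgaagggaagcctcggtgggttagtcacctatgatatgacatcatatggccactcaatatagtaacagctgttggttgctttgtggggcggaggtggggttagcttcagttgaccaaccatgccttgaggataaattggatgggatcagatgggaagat
DDIT3, chr12:57520515-57520764, minus strand: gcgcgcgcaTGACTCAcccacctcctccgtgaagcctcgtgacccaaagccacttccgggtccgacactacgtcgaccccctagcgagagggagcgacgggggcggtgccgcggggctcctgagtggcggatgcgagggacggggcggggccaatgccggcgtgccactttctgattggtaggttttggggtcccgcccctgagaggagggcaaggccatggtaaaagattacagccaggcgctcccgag
ATF5, chr19:49928656-49928905, plus strand: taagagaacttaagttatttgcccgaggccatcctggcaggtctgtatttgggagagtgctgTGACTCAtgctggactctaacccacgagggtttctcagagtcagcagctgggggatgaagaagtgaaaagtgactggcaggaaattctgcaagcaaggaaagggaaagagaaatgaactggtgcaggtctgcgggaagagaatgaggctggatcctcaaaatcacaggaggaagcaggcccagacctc
The matches begin at base -191 in ATF3, -241 in DDIT3 and -188 in ATF5, counted from the gene start. Among 27305 upstream windows of the same 250 bases, 3.19% held TGATGNAA and 6.6% held TGANTCA on either strand. The cAMP response element TGACGTCA (1.77% of windows), the antioxidant response core TGACNNNGC (11.0%) and the C/EBP palindrome TTGCGCAA (0.11%) had no match in the 6 windows. ATF4, CEBPB and CEBPG had no match to any of the 5. A match is a stretch of letters and not a measured binding site. RefSeq gives 1 start per gene here, whereas GENCODE v29 lists 7 starts over 49844 bases for ATF3, 4 over 1245 bases for DDIT3 and 5 over 1517 bases for ATF5. Which starts these cells used was not tested. Matches, and their absence, therefore hold for these windows of 250 bases only and not for other promoters of the genes.

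In H2O2, 6 of the 8 genes rose after 4 h (ATF3, ATF4, DDIT3, CEBPB, CEBPG and NUPR1), against 26.2% of all genes tested, and none fell, against 19.7%. The same 6 were higher than untreated cells after 8 h (background 18.8% higher and 18.6% lower) and after 24 h (20.2% higher), when ATF5 was lower (19.9% lower). ATF3, DDIT3 and CEBPB were differentially expressed after 4 h and 8 h, and ATF3, DDIT3 and NUPR1 after 24 h. Of all genes, 0.696% were differentially expressed after 4 h, 0.518% after 8 h and 1.61% after 24 h. The median difference of the 8 genes was 0.95 after 4 h, 0.91 after 8 h and 0.80 after 24 h, whereas that of all genes was 0.00 at each time.

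In NCS, ATF3 and ATF5 were higher after 4 h (7.47% of all genes higher) and ATF4 and CEBPG lower (9.72% lower). The calls of ATF4, ATF5 and CEBPG at this time were weak, and the number of changed genes was 1 to 3 when a library was left out. ATF3, DDIT3 and CEBPB were higher after 8 h (10.5%), and none was lower (13.3%). By 24 h, the 6 genes that were higher in H2O2 were higher in NCS as well (19.6%), and ATF5 was lower (18.4%). Only ATF3, after 4 h and 8 h, was differentially expressed in NCS, where 0.218% of all genes were after 4 h, 0.34% after 8 h and 1.5% after 24 h. The median difference of the 8 genes was -0.05 after 4 h, 0.02 after 8 h and 0.40 after 24 h. Both sets of comparisons use the same 3 untreated libraries.

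**Figure D1:**
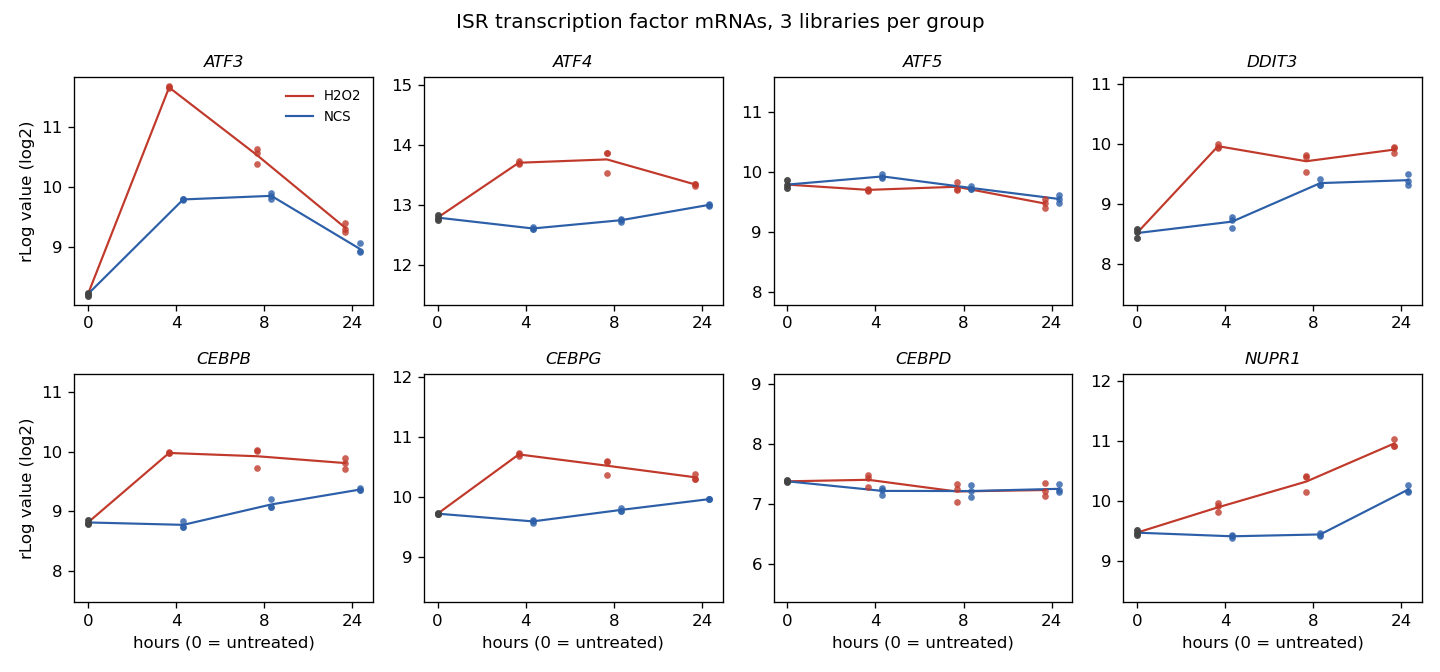
rLog value (log2, vertical axis) of each of the 8 genes by time after treatment (horizontal axis, 0, 4, 8 and 24 h at equal spacing). Points are libraries, lines join group means, with H2O2 in red, NCS in blue and untreated cells in grey, and every panel spans the same number of log2 units. ATF3 in H2O2 is highest after 4 h (11.65 to 11.68) and NUPR1 after 24 h (10.92 to 11.05), while CEBPD stays between 7.04 and 7.49 in all libraries.

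ATF4, the central activator of the response, was at 12.84, 12.75 and 12.78 in untreated cells. In H2O2 it was at 13.69, 13.69 and 13.73 after 4 h, at 13.87, 13.54 and 13.88 after 8 h and at 13.32, 13.35 and 13.36 after 24 h. Every H2O2 library was above every other library, and the 24 h libraries were below those after 4 h and 8 h. ATF4 thus rose by 0.92 after 4 h (SE 0.06 for each comparison of ATF4, limma adjusted p = 4.73e-10), by 0.97 after 8 h (6.03e-10) and by 0.55 after 24 h (2.39e-07). The pooled SE does not describe the libraries after 8 h of H2O2, where the SD of ATF4 was 0.19, against 0.02 to 0.05 in the other groups. Without replicate 2, the difference after 8 h was 1.08 and ATF4 was differentially expressed, which made 4 genes instead of 3.

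In NCS, ATF4 was at 12.63, 12.60 and 12.59 after 4 h, at 12.76, 12.72 and 12.76 after 8 h and at 12.98, 13.01 and 13.03 after 24 h. It was therefore below untreated cells after 4 h, within their range after 8 h in 2 of 3 libraries, and above them after 24 h. The difference was -0.18 after 4 h (limma adjusted p = 0.0372), which did not pass in 7 other fits, with quantile normalization (0.0718), with no variance trend (0.0578), or without any of 5 of the 6 libraries, untreated replicate 2 being the exception. At 8 h it was -0.04 (0.743) and after 24 h 0.21 (0.00616). In GENCODE v29, 4 pseudogenes are named after ATF4, and how reads shared with them were counted is not given in the sources used here.

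CEBPG, a C/EBP protein that lacks an activation domain and pairs with ATF4, is the partner described next. Its values were 9.71, 9.73 and 9.71 in untreated cells, and in H2O2 10.67, 10.73 and 10.72 after 4 h, 10.60, 10.37 and 10.58 after 8 h, and 10.30, 10.29 and 10.38 after 24 h. All H2O2 libraries lay above all others. The differences were 0.99 after 4 h (SE 0.04, limma adjusted p = 3.7e-12), 0.80 after 8 h (1.96e-10) and 0.61 after 24 h (1.21e-09). In NCS, CEBPG was at 9.60, 9.61 and 9.56 after 4 h, at 9.82, 9.77 and 9.75 after 8 h and at 9.96 in each library after 24 h. It was below untreated cells after 4 h by a small margin (-0.13, limma adjusted p = 0.049, which did not pass when any of the 6 libraries was left out), differed by 0.06 after 8 h (0.376), and rose by 0.24 after 24 h (0.000151).

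CEBPB, a C/EBP activator of stress and inflammatory genes, was at 8.85, 8.79 and 8.80 in untreated cells. In H2O2 it was at 9.99, 9.97 and 9.97 after 4 h, at 10.01, 9.72 and 10.03 after 8 h and at 9.90, 9.81 and 9.71 after 24 h. These values overlapped from 4 h to 8 h and from 8 h to 24 h, and all lay above the other groups. CEBPB rose by 1.16 after 4 h (SE 0.06, limma adjusted p = 6.39e-11), 1.11 after 8 h (3.46e-10) and 0.99 after 24 h (2.38e-10), just under the limit of 1 at the last time. In NCS it was at 8.84, 8.74 and 8.75 after 4 h, at 9.20, 9.08 and 9.07 after 8 h and at 9.39, 9.35 and 9.35 after 24 h. It overlapped untreated cells after 4 h (-0.04, adjusted p = 0.842), and was above them by 0.30 after 8 h (0.0014) and 0.55 after 24 h (9.2e-07). CEBPB overlaps the antisense gene CEBPB-AS1, and whether counting used the strand is not given in the sources used here.

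CEBPD, another C/EBP activator of acute responses, did not follow the others. Untreated libraries were at 7.37, 7.40 and 7.38. H2O2 libraries were at 7.49, 7.28 and 7.44 after 4 h, at 7.33, 7.26 and 7.04 after 8 h and at 7.35, 7.14 and 7.22 after 24 h, and all 9 NCS libraries lay between 7.12 and 7.33. No difference from untreated cells passed the test. All NCS libraries and the H2O2 libraries after 8 h and 24 h nevertheless lay below every untreated library. The differences ran from -0.17 (H2O2 after 8 h, SE 0.07, limma adjusted p = 0.0839) to 0.03 (H2O2 after 4 h, adjusted p = 0.841, 95% interval -0.13 to 0.18). With library medians aligned, CEBPD passed as lower in H2O2 after 8 h (0.0405) and 24 h (0.0377) and in NCS after 8 h (0.0253). With low genes left out, it passed as lower in H2O2 after 8 h (0.0395).

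ATF3, an early factor that mostly represses its targets as a homodimer, had the largest differences of the 8 in the first 8 h of either treatment. It was at 8.24, 8.22 and 8.19 in untreated cells. In H2O2 it was at 11.68, 11.66 and 11.65 after 4 h, at 10.56, 10.39 and 10.64 after 8 h and at 9.30, 9.25 and 9.41 after 24 h. In NCS it was at 9.78, 9.80 and 9.80 after 4 h, at 9.90, 9.81 and 9.86 after 8 h and at 8.92, 8.94 and 9.06 after 24 h. None of the 7 groups overlapped its neighbour in the order of the means, which ran from H2O2 after 4 h through H2O2 after 8 h, NCS after 8 h, NCS after 4 h, H2O2 after 24 h and NCS after 24 h to untreated cells.

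In H2O2, ATF3 rose by 3.45 after 4 h (SE 0.05, limma adjusted p = 2.53e-18), 2.32 after 8 h (1.34e-15) and 1.10 after 24 h (2.85e-12). These differences ranked 2, 4 and 255 by size among all genes tested. In NCS it rose by 1.58 after 4 h (6.89e-13), 1.64 after 8 h (3.61e-13) and 0.76 after 24 h (7.02e-10), with ranks of 5, 5 and 485. ATF3 was the only gene of the 8 whose NCS libraries after 4 h were above untreated cells by more than 1, at a time when ATF4 and CEBPG were slightly below them.

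DDIT3 encodes CHOP, a C/EBP-like factor associated with cell death in prolonged stress. It was at 8.53, 8.43 and 8.57 in untreated cells. In H2O2 it was at 9.93, 10.00 and 9.95 after 4 h, at 9.79, 9.53 and 9.82 after 8 h and at 9.84, 9.94 and 9.93 after 24 h. All of these were above all NCS libraries, and the 24 h values overlapped those after 4 h. The rise was 1.45 after 4 h (SE 0.07, limma adjusted p = 8.47e-12), 1.20 after 8 h (3.17e-10) and 1.39 after 24 h (5.05e-12).

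In NCS, DDIT3 was at 8.78, 8.60 and 8.73 after 4 h, at 9.31, 9.31 and 9.42 after 8 h and at 9.31, 9.38 and 9.50 after 24 h. The 4 h libraries lay just above the untreated ones, with a difference of 0.19 that did not pass the test (limma adjusted p = 0.0622), but passed with low genes left out (0.0166). DDIT3 was higher by 0.83 after 8 h (3.08e-08) and 0.88 after 24 h (3.9e-09). Exons of DDIT3 overlap those of AC022506.1 on the same strand and of MARS and MBD6 on the opposite strand, and how such reads were assigned is not given in the sources used here.

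ATF5, which is related to ATF4 and acts in mitochondrial stress, had small differences throughout. It was at 9.78, 9.86 and 9.73 in untreated cells. H2O2 libraries were at 9.71, 9.70 and 9.69 after 4 h, at 9.84, 9.70 and 9.72 after 8 h and at 9.48, 9.54 and 9.40 after 24 h. NCS libraries were at 9.91, 9.97 and 9.90 after 4 h, at 9.72, 9.77 and 9.71 after 8 h and at 9.48, 9.62 and 9.55 after 24 h. Both treatments after 24 h and H2O2 after 4 h were below untreated cells without overlap, and only NCS after 4 h was above them.

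ATF5 fell by 0.32 in H2O2 after 24 h (SE 0.04, limma adjusted p = 1.11e-05) and by 0.24 in NCS (0.000242). The difference was -0.09 in H2O2 after 4 h (0.122, 95% interval -0.18 to 0.01) and -0.04 after 8 h (0.618, interval -0.13 to 0.06). In NCS it was 0.14 after 4 h (0.0427, which did not pass in 8 other fits, 5 of them with a library left out, untreated replicate 2 being the exception) and -0.05 after 8 h (0.488). ATF5 overlaps NUP62 and IL4I1 on the opposite strand and MIR4751 on its own.

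NUPR1 encodes a small nuclear protein that binds chromatin regulators and is induced by many stresses, also in pancreas. It was at 9.46, 9.52 and 9.44 in untreated cells. In H2O2 it was at 9.92, 9.81 and 9.96 after 4 h, at 10.41, 10.15 and 10.42 after 8 h and at 10.92, 11.05 and 10.93 after 24 h, each time above the one before without overlap. It rose by 0.42 after 4 h (SE 0.06, limma adjusted p = 7.56e-06), 0.85 after 8 h (2.32e-09) and 1.49 after 24 h (1.99e-13). In NCS it was at 9.39, 9.44 and 9.41 after 4 h, at 9.44, 9.42 and 9.48 after 8 h and at 10.16, 10.17 and 10.27 after 24 h. The first 2 times differed from untreated cells by -0.06 (0.617) and -0.03 (0.872), and NUPR1 was higher by 0.72 after 24 h (6.29e-09).

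**Figure D2:**
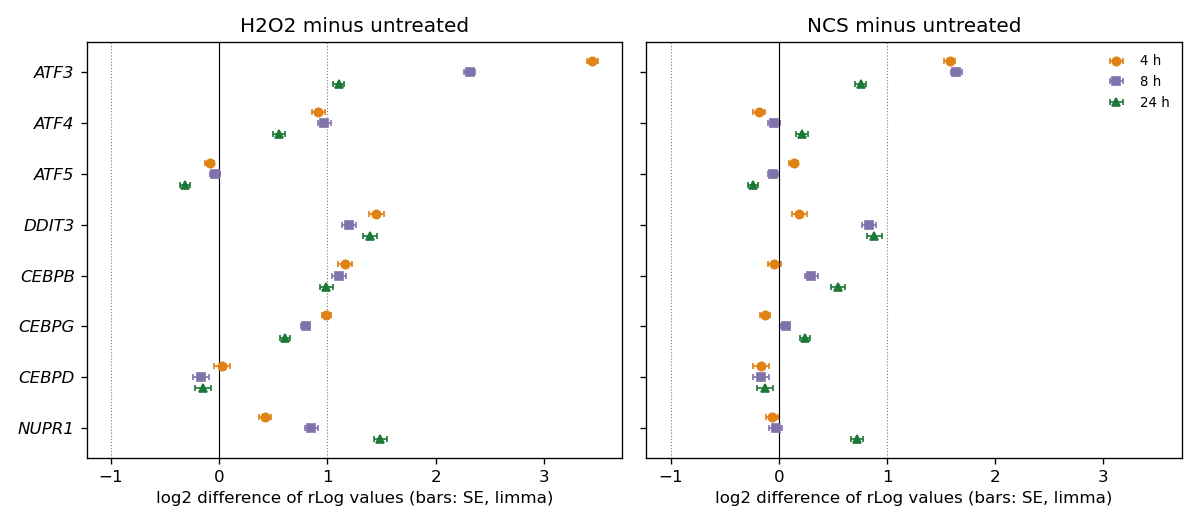
Difference from untreated cells (log2 scale, horizontal axis) of the 8 genes in H2O2 (left) and NCS (right) at 4, 8 and 24 h, with bars for the SE from limma and dotted lines at differences of -1 and 1. ATF3 in H2O2 lies farthest to the right after 4 h (3.45), and in NCS only ATF3 passes the line at 1, with 1.58 after 4 h and 1.64 after 8 h.

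H2O2 and NCS were then compared at equal times. At 4 h, 6 genes were higher in H2O2, the same ones that rose against untreated cells, and ATF5 was lower, against 26.3% of all genes higher and 18% lower. ATF3, ATF4, DDIT3, CEBPB and CEBPG were differentially expressed, 5 of 8 genes against 0.574% of all. At 8 h the same 6 were higher (18.7% of all) and none lower (15.4%), and ATF4 was differentially expressed (0.162% of all). At 24 h the 6 were again higher (11%), none was lower (10.9%) and none was differentially expressed (0.0152%). The median difference of the 8 genes was 1.11 after 4 h, 0.71 after 8 h and 0.36 after 24 h.

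For ATF3 the difference between treatments was 1.87 after 4 h (SE 0.05, limma adjusted p = 1.1e-14), 0.68 after 8 h (1.94e-08) and 0.35 after 24 h (6.56e-05). ATF4 differed by 1.10 after 4 h (SE 0.06, 5.14e-11), 1.01 after 8 h (8.27e-10) and 0.34 after 24 h (0.000256). In both genes the 2 treatments did not overlap at any time. The count of 1 after 8 h rests on a value close to the limit, and the ATF4 difference after 8 h was 1.13 without H2O2 replicate 2 but 0.96 without replicate 1 or replicate 3, which left no gene differentially expressed.

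DDIT3 differed by 1.26 after 4 h (SE 0.07, 6.66e-11), 0.36 after 8 h (0.00033) and 0.51 after 24 h (1.94e-05). CEBPB differed by 1.20 (SE 0.06, 4.87e-11), 0.80 (2.74e-08) and 0.44 (4.04e-05), and CEBPG by 1.12 (SE 0.04, 1.09e-12), 0.74 (9.77e-10) and 0.37 (5.26e-06), at 4, 8 and 24 h. The differences of CEBPB and CEBPG were thus smaller at each later time. NUPR1 differed by 0.48 after 4 h (SE 0.06, 1.6e-06), 0.88 after 8 h (3.24e-09) and 0.77 after 24 h (1.98e-08), and after 24 h it ranked 29 by size among all genes tested.

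ATF5 was lower in H2O2 by 0.22 after 4 h (limma adjusted p = 0.000451), and differed by 0.02 after 8 h (0.845, 95% interval -0.08 to 0.11) and -0.08 after 24 h (0.281, interval -0.17 to 0.02). CEBPD was 0.19 higher in H2O2 after 4 h, close to the limit of the test (adjusted p = 0.0504, interval 0.03 to 0.34), and it passed with library medians aligned (0.0243), quantile normalization (0.0315) or low genes left out (0.0275). Its differences after 8 h (-0.01, 0.96) and 24 h (-0.02, 0.936) had intervals of -0.16 to 0.15 and -0.18 to 0.14.

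**Figure D3:**
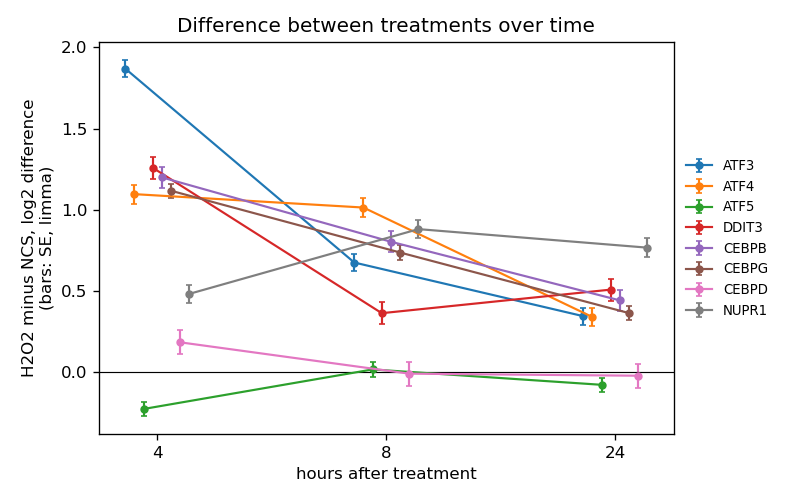
Difference between H2O2 and NCS (log2 scale, with SE bars from limma) for the 8 genes at 4, 8 and 24 h. The values of ATF3, ATF4, CEBPB and CEBPG come closer to 0 with time, from 1.87 to 0.35 in ATF3, while NUPR1 is higher after 8 h (0.88) and 24 h (0.77) than after 4 h (0.48).

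The change of this difference from 4 h to 24 h was tested as an interaction, and 6 of the 8 genes passed, against 39.4% of all genes. In ATF3 the change was -1.52 (SE 0.07, limma adjusted p = 6.86e-11). In ATF4 the change was -0.76 (9.71e-07), in CEBPB -0.76 (2.56e-06), in CEBPG -0.75 (3.14e-08) and in DDIT3 -0.75 (6.52e-06). NUPR1 alone passed in the other direction, with a change of 0.28 (SE 0.08, 0.00931). ATF5 (0.15, 0.0721) and CEBPD (-0.21, 0.134) did not pass, but ATF5 passed with low genes left out (0.0484) and CEBPD with library medians aligned (0.0386).

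Successive times within a treatment were also compared. In H2O2, 5 genes changed from 4 h to 8 h, against 45.7% of all genes, and 6 from 8 h to 24 h, against 42.6%. ATF3 fell by 1.13 and then by 1.21 (SE 0.05, limma adjusted p = 1.74e-11 and 3.39e-12), and NUPR1 rose by 0.43 and then by 0.64 (SE 0.06, 6.77e-06 and 4.57e-08). CEBPG fell at both steps, by 0.19 and 0.19 (0.00155 and 0.00124), with values that overlapped in the second step. Neither fall of CEBPG passed in a fit of only the groups compared (0.0701 and 0.0705). ATF4 differed by 0.06 from 4 h to 8 h (0.471) and fell by 0.42 from 8 h to 24 h (9.43e-06), and ATF5 fell by 0.28 in the second step (4.72e-05).

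DDIT3 fell by 0.25 from 4 h to 8 h (0.00521) and rose by 0.19 from 8 h to 24 h (0.0269), and neither call passed in a fit of only the groups compared (0.0569 and 0.122). CEBPD fell by 0.20 in the first step (0.0391), with overlapping values. That call did not pass without replicate 1 (0.151) or 3 (0.109) of the 4 h group, without replicate 3 (0.239) of the 8 h group, or in a fit of only those groups (0.164). Replicate 2 after 8 h, the library that stood apart, was the lowest of its group in 7 of the 8 genes, CEBPD being the exception. Without it, the first-step falls of DDIT3 and CEBPG were smaller, -0.16 (0.0362) and -0.11 (0.00301). The rise of DDIT3 from 8 h to 24 h was 0.10 without it and did not pass (0.189), as it did not without replicate 2 (0.0881) or 3 (0.0775) of the 24 h group. Also without it, the fall of CEBPB from 8 h to 24 h was -0.22 in place of -0.11 and passed (0.000959), and ATF4 was higher after 8 h than after 4 h by 0.17 (2.29e-05).

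In NCS, 4 genes changed from 4 h to 8 h, against 13.7% of all genes, and 6 from 8 h to 24 h, against 29.9%. DDIT3 rose by 0.64 in the first step (SE 0.07, limma adjusted p = 3.56e-06), which ranked 22 by size among all genes tested, and differed by 0.05 in the second (0.704). CEBPB rose by 0.34 and 0.25 (0.00101 and 0.00529) and CEBPG by 0.19 and 0.18 (0.00514 and 0.00342), while ATF5 fell by 0.19 and 0.18 (0.00662 and 0.00358). NUPR1 differed by 0.03 in the first step (0.897) and rose by 0.75 in the second (8.19e-09). ATF4 differed by 0.14 in the first step without overlap (0.142), which passed with low genes left out (0.0365) and in a fit of only the groups compared (0.00506). ATF4 rose by 0.26 in the second step (0.00203), in which ATF3 fell by 0.88 (2.61e-10).

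Across the 21 libraries, ATF4 and CEBPG had a Pearson correlation of 0.98, CEBPB and CEBPG of 0.97, ATF4 and CEBPB of 0.95, and DDIT3 and CEBPB of 0.94. ATF3 and NUPR1, with their early and late courses, had a correlation of 0.06, and ATF5 and NUPR1 of -0.75. These values describe 7 groups of replicates that share treatments and are not evidence of shared control. Among 536 other genes with a mean value of at least 5 and group means that ranged over at least 1, the most alike to ATF4 were JDP2 (0.99), TSC22D3 (0.97) and the cystine transporter SLC7A11 (0.95). TSC22D3 also led for CEBPB (0.98), before JHDM1D (0.97) and ULBP1 (0.97).

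The genes most alike to CEBPG were POM121L9P (0.97), TSC22D3 (0.97) and JDP2 (0.96). For ATF3 they were IER3 (0.97), the zinc exporter SLC30A1 (0.96) and GADD45A (0.94), and for DDIT3 JHDM1D (0.94), ULBP1 (0.93) and CHAC1 (0.91). NUPR1 was most alike to PCK2 (0.97), which encodes a mitochondrial gluconeogenic enzyme, CBS (0.97), which acts in cysteine synthesis, and UNC5B (0.97). ATF5 was most alike to TMEM97 (0.92), RECQL4 (0.92) and CHTF18 (0.91). For CEBPD the highest values were lower, 0.68 for CCDC85B, 0.66 for EGR1 and 0.59 for GAS2L3.

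Other genes of the response were described by 6 lists compiled from general knowledge, with earlier results of these data known. Their counts therefore describe these data and are not an independent test. A list of 21 ATF4 targets held mostly genes of amino acid supply and one-carbon metabolism, but also VLDLR and STC2. Of these, called the amino acid genes below, 19 rose in H2O2 after 4 h, 19 after 8 h and 19 after 24 h. At these times 0, 1 and 2 were lower, and the median differences were 0.34, 0.91 and 0.71. Of all genes, 26.2%, 18.8% and 20.2% were higher at these times of H2O2 and 19.7%, 18.6% and 19.9% lower. In NCS, 0, 1 and 15 were higher (7.47%, 10.5% and 19.6% of all genes) and 6, 2 and 1 lower (9.72%, 13.3% and 18.4%), with medians of -0.07, 0.01 and 0.22. ASNS, asparagine synthetase, was higher by 0.63 after 4 h, 1.45 after 8 h and 1.66 after 24 h of H2O2 (SE 0.07, limma adjusted p = 9.47e-13 after 24 h), and in NCS by 0.78 after 24 h (4.25e-08). The glycine transporter SLC6A9 was higher by 1.79 in H2O2 after 24 h (1.55e-12) and by 0.95 in NCS after 24 h (1.44e-08). The lipoprotein receptor VLDLR was higher by 1.63 in H2O2 after 8 h (1.56e-12) and lower by 0.26 in NCS after 4 h, where the difference was -0.26 (0.00361).

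Of 12 aminoacyl-tRNA synthetases, 11, 11 and 12 rose in H2O2 at 4, 8 and 24 h, with 1, 0 and 0 lower and medians of 0.23, 0.47 and 0.50. Of all genes, 26.2%, 18.8% and 20.2% were higher at these times and 19.7%, 18.6% and 19.9% lower. In NCS, 0, 2 and 11 were higher, against 7.47%, 10.5% and 19.6%, and 2, 0 and 0 lower, against 9.72%, 13.3% and 18.4%. Their medians in NCS were -0.04, 0.01 and 0.32. CARS was higher by 1.02 in H2O2 after 8 h (SE 0.05, limma adjusted p = 1.56e-10), WARS by 0.97 after 24 h (3.44e-13) and GARS by 0.76 after 8 h (3.27e-10), genes for the cysteine, tryptophan and glycine enzymes. In NCS after 24 h they were higher by 0.47 (9.96e-07), 0.56 (8.64e-10) and 0.49 (2.47e-08). The list includes MARS, whose exons overlap DDIT3.

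Of 10 feedback and death effectors, 10, 9 and 7 rose in H2O2 at 4, 8 and 24 h and 0, 0 and 1 fell. Their medians were 1.09, 1.11 and 1.02. Of all genes, 26.2%, 18.8% and 20.2% rose at these times and 19.7%, 18.6% and 19.9% fell. In NCS, 3, 7 and 7 were higher and 1, 0 and 1 lower, where 7.47%, 10.5% and 19.6% of all genes were higher and 9.72%, 13.3% and 18.4% lower. The 3 after 4 h were BBC3 (1.45, limma adjusted p = 2.62e-11), SESN2 (1.10, 1.38e-09) and TNFRSF10B (0.78, 2.87e-08). TRIB3 (0.02), CHAC1 (-0.12) and PPP1R15A (0.11) did not pass at that time, and DDIT4 was lower (-0.24, 0.0492). After 8 h and 24 h, TRIB3, CHAC1, PPP1R15A and DDIT4 were higher as well. The study names BBC3 among p53 target genes. Whether p53 or the ISR raised these effectors in NCS was not tested. CHAC1, which degrades glutathione, rose by 1.79, 2.27 and 1.53 in H2O2 (SE 0.10, limma adjusted p = 2.3e-11 after 8 h) and was at -0.12 (0.542), 0.80 (7.67e-06) and 0.94 (3.86e-07) in NCS. TRIB3, a pseudokinase that restrains ATF4, rose by 2.08 in H2O2 after 24 h (1.06e-12) and by 1.10 in NCS (1e-08). SESN2, a sestrin that p53 also activates, was higher by 1.87 in H2O2 (SE 0.07, 2.88e-13) and by 1.10 in NCS (1.38e-09) after 4 h, and by 2.09 in H2O2 (3.38e-13) and 1.13 in NCS (6.1e-10) after 8 h.

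Of 20 genes of the endoplasmic reticulum unfolded protein response, 17 and 19 rose in H2O2 after 4 h and 8 h and 1 fell at each time, and after 24 h 7 were higher and 10 lower. The medians were 0.21, 0.31 and -0.05, and the shares of all genes were 26.2%, 18.8% and 20.2% higher and 19.7%, 18.6% and 19.9% lower. In NCS, 3, 18 and 9 were higher (7.47%, 10.5% and 19.6% of all genes) and 1, 0 and 4 lower (9.72%, 13.3% and 18.4%), with medians of 0.03, 0.23 and 0.07. HERPUD1, which acts in protein degradation from the reticulum, rose by 1.14 in H2O2 after 4 h (SE 0.05, limma adjusted p = 1.89e-12). The chaperone HSPA5 was higher by 1.00 in H2O2 after 8 h (8.27e-12) and lower after 24 h, with a difference of -0.17 (0.00187), and the co-chaperone DNAJB9 was higher by 1.08 after 8 h (4.89e-10). All 3 were also higher in NCS after 8 h, HSPA5 by 0.57 (6.4e-09), DNAJB9 by 0.49 (9.57e-06) and HERPUD1 by 0.21 (0.00239).

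Of 13 eIF2 kinases and eIF2 or eIF2B genes, 5, 5 and 4 were higher and 5, 3 and 6 lower in H2O2, with medians of -0.06, 0.00 and -0.01. In NCS, 1, 1 and 5 were higher and 2, 1 and 3 lower. Several of these counts lie near the shares over all genes, which in H2O2 were 26.2%, 18.8% and 20.2% higher and 19.7%, 18.6% and 19.9% lower, and in NCS 7.47%, 10.5% and 19.6% higher and 9.72%, 13.3% and 18.4% lower. EIF2AK3, the kinase PERK, rose by 0.60 in H2O2 after 4 h (SE 0.03, limma adjusted p = 6.76e-11), EIF2S2, a subunit of eIF2, rose by 0.40 after 8 h (3.5e-08), and EIF2AK2, the kinase PKR, fell by 0.33 after 4 h (7.33e-06). Of 14 other genes listed as ATF and C/EBP relatives, 4 were higher at each time of H2O2 and 5, 1 and 3 lower. In NCS, 3, 2 and 4 were higher and 2, 3 and 3 lower. Several of these counts too lie near the same shares over all genes. JDP2, a repressor related to ATF3, rose by 0.92 in H2O2 after 8 h (SE 0.05, 4.65e-10), and BATF rose by 0.36 in H2O2 after 24 h (0.000182). CEBPZ, which shares the symbol but is not of the C/EBP family, fell by 0.39 in NCS after 24 h (3.9e-09).

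Between treatments after 4 h, 20 of the 21 amino acid genes, 11 of the 12 synthetases, 8 of the 10 effectors and 16 of the 20 unfolded protein response genes were higher in H2O2, and 0, 0, 1 and 1 lower, against 26.3% of all genes higher and 18% lower. After 8 h the numbers higher were 20, 11, 9 and 10, and the numbers lower 1, 0, 0 and 1, against 18.7% and 15.4% of all genes. The medians after 8 h were 0.90, 0.47, 0.50 and 0.07. At 24 h the numbers higher were 17, 9, 7 and 3, and the numbers lower 1, 0, 0 and 10, against 11% and 10.9% of all genes. Their medians after 24 h were 0.36, 0.20, 0.35 and -0.09. The eIF2 genes and the listed ATF and C/EBP relatives had 4 and 5 higher and 4 and 4 lower after 4 h. They had 6 and 8 higher and 3 and 1 lower after 8 h, and 2 and 2 higher and 5 and 1 lower after 24 h. The same shares over all genes apply.

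**Figure D4:**
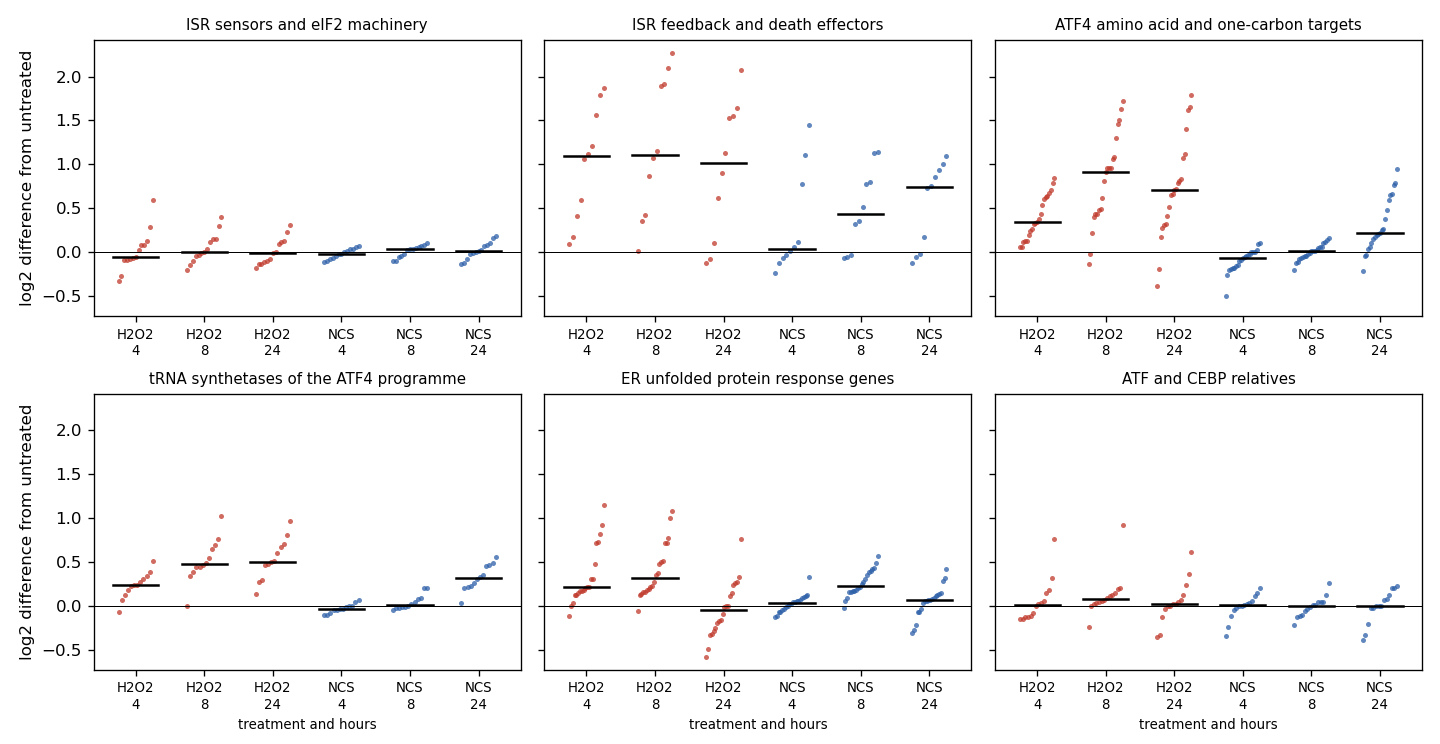
Difference from untreated cells (log2 scale) of every gene in the 6 lists, by treatment and time, with a point for each gene and a black bar for the median of the list. The feedback and death effectors have the highest medians in H2O2 (1.09, 1.11 and 1.02 at 4, 8 and 24 h). In NCS their medians, 0.04, 0.43 and 0.74, are also the highest of the 6 lists. After 4 h of NCS the lead is negligible, as the median of the unfolded protein response genes is 0.03. The amino acid genes in NCS have a median of 0.22 after 24 h.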

How the data were processed

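RNA-seq values of 21 libraries (7 groups of 3 biological replicates, TruSeq Stranded mRNA) were analysed. The authors aligned the reads, counted them per gene and deposited log2 values made by the rLog transformation of DESeq2. HISAT2, HTSeq, DESeq2 and hg19 are named in the submitters' processing notes. Versions, annotation and the strand setting are not given in the sources used here. Depth is unknown, so no interval from counts was calculated.

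The values were not normalized further. Of 23368 genes, 3674 at 0 in all libraries were left out. The other 19694 were fitted with limma 3.58.1 (R 4.3.3), allowing the variance to follow the mean level, and p-values were adjusted by Benjamini and Hochberg's method within each of 14 contrasts. The limits (adjusted p under 0.05, log2 difference over 1) are those the study applied to fold changes from counts. An exact permutation test (two-sided) of 3 libraries against 3 has a smallest p of 0.1. The labels do not say whether the replicates came from separate days. The fit was tested on simulated data.

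The 8 genes and the lists were chosen with earlier results of these data known. All 8 genes are named, up to 3 genes of each list with the largest change from untreated cells, and the 3 genes most correlated with each of the 8. Further effectors are named to show which of them were higher in NCS. Upstream sequences are from RefSeq (GRCh38.p14) and overlaps from GENCODE v29 (GRCh38), a build other than that of the reads. Python 3.11.15 with pandas 2.3.3, numpy 2.4.6 and matplotlib 3.10.9 was used. Alternatives were quantile normalization, aligned library medians, only genes with a mean of 5 or more, a fit of the compared groups alone, no variance trend, a replicate block, a limit of 0.58, and the omission of each library in turn.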

Additional observations from a re-analysis of the deposited data

Results flagged for a closer look

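For 6 genes the difference between H2O2 and NCS was not the same at 24 h as at 4 h, by an interaction term in limma. The change of the difference from 4 h to 24 h was -1.52 in ATF3, -0.756 in ATF4, -0.750 in DDIT3, -0.757 in CEBPB, -0.753 in CEBPG and 0.284 in NUPR1. The first 5 genes were higher in H2O2 by less at 24 h than at 4 h, and NUPR1 by more. Of all genes tested, 39.4% passed this test.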

How the results depend on the processing

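Alternatives other than leaving out a library gave 664 values for single genes, of which 631 kept their direction and side of the threshold. Leaving out a library gave 720, of which 676 did so. The cause of the changes below was not tested. The number of the 8 genes changed in NCS at 4 h was 4, but 2 with quantile normalization, 1 without the mean-variance trend and 1 to 3 with a library left out. Changed genes from 4 h to 8 h of H2O2 numbered 5, but 2 in a fit of only the groups compared, which has fewer samples. With a limit of 0.58, differentially expressed genes numbered 5, 6 and 5 in H2O2 at 4, 8 and 24 h, 2 and 3 in NCS at 8 h and 24 h, and 5 and 1 between H2O2 and NCS at 8 h and 24 h. The share of all genes past 0.58 was not calculated, so these counts cannot be set against a background. Between H2O2 and NCS at 8 h the number was 0 with quantile normalization and 0 to 1 with a library left out.

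Reversed differences had not passed the test. CEBPD between H2O2 and NCS at 8 h was 0.0142 with medians aligned and 0.0030 with quantile normalization, and NUPR1 in NCS at 8 h was 0.00107 with quantile normalization. With a library left out, CEBPD ranged from -0.0162 to 0.0858 in H2O2 at 4 h, from -0.0682 to 0.0780 and from -0.0783 to 0.0288 between H2O2 and NCS at 8 h and 24 h, from -0.0612 to 0.0851 between 8 h and 24 h of H2O2, from -0.0509 to 0.0442 between 4 h and 8 h of NCS and from -0.00961 to 0.0855 between 8 h and 24 h of NCS. ATF4 ranged from -0.00132 to 0.168 and CEBPB from -0.111 to 0.0459 between 4 h and 8 h of H2O2, ATF5 from -0.0245 to 0.0429 between H2O2 and NCS at 8 h, and DDIT3 from -0.00214 to 0.0909 between 8 h and 24 h of NCS.

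Same-numbered libraries had a mean correlation of 0.03 of their deviations from the group means (-0.15 to 0.21, over 0.1 in 12 of 63 pairs), so the numbers were not taken to pair the samples. With the replicate block, 20 of 22 counts were equal, while genes changed in H2O2 at 8 h became 7 in place of 6, and between H2O2 and NCS at 4 h 8 in place of 7, in both cases through CEBPD (adjusted p = 0.034 and 0.0185). In NCS at 4 h, DDIT3 passed (0.0334) and CEBPG did not (0.0563), and the interaction of ATF5 passed (0.0443). Leaving out a library also let a few differences pass, CEBPD in H2O2 at 8 h without replicate 1 (0.0314) and between H2O2 and NCS at 4 h without H2O2 replicate 2 (0.0188), DDIT3 in NCS at 4 h without replicate 2 (0.0368), and the interaction of ATF5 without H2O2 replicate 3 (0.0271) or NCS replicate 2 (0.033) at 24 h. Scaling moved the median of all genes by at most 0.03. Depth is unknown and limits what small differences of CEBPD can show.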
